A study of Saccharomyces cerevisiae with 12 samples.

Results

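The comparison described here set potassium restriction against glucose restriction in the haploid budding yeast strain BY4742, which the labels give as wild type and which is a MATalpha laboratory strain. The potassium-restricted cells grew in 2% glucose with 1 mM potassium chloride, and the glucose-restricted cells grew in 0.5% glucose with 7 mM potassium chloride. Both groups held 3 biological replicates, so 6 of the series' 12 libraries were compared, chosen by their labels and not by any measured value. The other 6 libraries came from 2% glucose with 7 mM potassium, where neither nutrient was restricted, and from 0.5% glucose with 1 mM potassium, where both were. The 2 groups compared differ in both nutrients at once, so a difference between them cannot be assigned to potassium or to glucose from these 6 libraries. The stage of growth at harvest is not given in the sources used here, and the labels give all 12 libraries 1 batch date. The series' title sets potassium restriction beside caloric restriction and chronological lifespan, and the comparison asks which transcripts tell the 2 restrictions apart.

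Yeast takes up potassium through the Trk transporters, and the uptake is driven by the membrane potential that the plasma membrane proton pump Pma1 builds. Potassium supply is linked in yeast to the PHO pathway, in which the transcription factor Pho4 turns on phosphatases and phosphate transporters. Glucose represses genes for the use of other carbon sources, and when glucose runs out the repression is lifted and cells turn to ethanol, acetate and fatty acids. Growth in rich glucose also goes with high expression of ribosomal protein genes.

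The libraries compared held 6277688 to 7036345 counts at rows with SGD (Saccharomyces Genome Database) identifiers, while 33.97% to 37.1% of all counts fell on WBGene identifiers, which were left out. Of 7127 SGD rows, 6127 genes had enough counts to be tested. Replicate 2 of the glucose-restricted group stood apart: 755 of its genes were over 2-fold above or below every one of the other 11 libraries, against 67 in the next library. Its log2 CPM correlated with its partners across genes at r = 0.882 and 0.891, and theirs with each other at 0.987. It is called the divergent library below, and results are given with and without it. Ribosomal RNA took 2.03%, 1.88% and 0.989% of SGD counts in the potassium-restricted replicates and 1.45%, 1.23% and 1.24% in the glucose-restricted ones. LEU2, LYS2 and URA3, deleted in this strain, and the a-factor genes MFA1 and MFA2 were listed at 0 in all 12 libraries. That absence did not extend to all a-specific genes, of which 4 had enough counts to be tested. The a-specific list summed to between 62.754 CPM (both restrictions, replicate 2) and 159.509 CPM (neither restriction, replicate 1). Why these genes were counted in a MATalpha strain was not tested. The alpha-factor gene MF(ALPHA)1 was present in every library, and HIS3, of which the strain keeps a part, was still counted.

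Levels are CPM, the SGD counts of a gene scaled to a common library total with TMM factors. Log2 differences are potassium-restricted minus glucose-restricted, so that positive values are higher under potassium restriction. They come from edgeR's quasi-likelihood fit to all 12 libraries and carry an approximate standard error (SE). The SE was derived as the size of the log2 difference divided by the square root of the F statistic of its test. Genes whose adjusted p (Benjamini-Hochberg) lay under 0.05 were called. By this rule 1279 genes were higher under potassium restriction, 20.9% of those tested, and 1413 were lower, 23.1%. Without the divergent library, 6164 genes were tested, of which 1535 (24.9%) were higher and 1439 (23.3%) lower. The fits shared 1235 higher and 1217 lower calls, and 0 genes were called in opposite directions. With all libraries, the CPM of the groups did not overlap for 1255 of the 1279 higher and 1345 of the 1413 lower genes. Groups that do not overlap are therefore usual for a called gene and add little to the call. The same count over all genes tested is not given here, so these counts cannot be set beside it. At 4-fold or more, 221 genes were higher and 152 lower, and without the divergent library 202 were higher and 94 lower. At 16-fold or more, the counts were 29 higher and 21 lower, and 33 and 6 without it. With libraries scaled by their totals instead of TMM, 58.6% of calls were higher instead of 47.5%, and the median difference of all genes moved to 0.16 from -0.01, so differences are given relative to the TMM scale. In a fit to the 6 libraries alone, 739 genes were higher and 723 lower. The spread behind each p is that among cultures which the labels call biological replicates.

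Cell wall genes, the proton pump gene PMA1 and genes of phosphate, inositol and sulfur metabolism led the genes that were higher under potassium restriction. CIS3, which encodes a mannoprotein of the cell wall (chromosome X, 122265 to 122948, build R64), stood at 304, 321 and 390.5 CPM in the potassium-restricted replicates and 5.604, 4.68 and 4.73 CPM in the glucose-restricted ones. The ranges were far apart, and the divergent library lay with its partners. The log2 difference was 6.07 ± 0.19 (SE; edgeR adjusted p = 4.32e-09). PMA1, which encodes the proton pump that powers nutrient uptake (chromosome VII, 479910 to 482666), stood at 2944, 3058 and 3611 CPM under potassium restriction and at 161, 94.7 and 99.8 CPM under glucose restriction. All 3 potassium-restricted libraries were above all 3 glucose-restricted ones, with a difference of 4.76 ± 0.32 (SE; edgeR adjusted p = 1.57e-06), and 4.63 without the divergent library. PMA1 was higher still where neither nutrient was restricted, at 7329.6 ± 1035 CPM (SD, n = 3), and stood at 1592 ± 269 CPM where both were. The paralog PMA2 was not called, with a log2 difference of -0.16 ± 0.27 (SE; edgeR adjusted p = 0.643).

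In each direction 14 genes were taken from those called with and without the divergent library, that averaged 10 CPM or more and whose groups stood apart, as that rule required. They were ranked by the smaller of their differences in these fits, so a gene whose difference is large in 1 fit alone can be missing. The others of the 14 in this direction were TOS6, SCW4, SCW10, SRL1 and CWP1 of the cell wall, INO1 of inositol synthesis and PHO5 of phosphate scavenging. They also included MET17, SAM2 and SAH1 of methionine metabolism, the transketolase gene TKL1 and HBN1. Their log2 differences ranged from 4.53 for CWP1 to 5.41 for INO1, and from 4.48 to 6.497 for the same genes without the divergent library. TOS6 and HBN1 were nearly silent in the glucose-restricted libraries, at 0.273, 1.36 and 0.696 CPM and 0.137, 1.75 and 0.975 CPM, so their fold depends on few counts.

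Acetate and fatty acid genes and genes of the zinc response led in the opposite direction. ADY2, which encodes an acetate transporter of the plasma membrane (chromosome III, 132273 to 133124), stood at 67.1, 63.98 and 46.1 CPM under potassium restriction and at 2651, 30965 and 1532 CPM under glucose restriction. The groups did not overlap, but the divergent library was far above its partners. The log2 difference was -7.63 ± 1.15 (SE; edgeR adjusted p = 0.000383), and -5.13 without that library. ZPS1, which encodes a surface protein induced at low zinc (chromosome XV, 34658 to 35407), stood at 37.1, 12.7 and 29.9 CPM and 671, 717 and 1204 CPM in the same order. The divergent library lay within the range of its partners for this gene, and the difference was -5.02 ± 0.44 (SE; edgeR adjusted p = 9.85e-06).

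The other genes among the 14 ranked in this way for the opposite direction differed in how far their size rested on the divergent library. RGI2, a gene of respiratory growth, PEX9, an import receptor of peroxisomes, CIT3, a citrate synthase gene of mitochondria, and FAT3, a gene of fatty acid uptake, had differences of -5.64, -5.32, -4.92 and -4.42. Without that library the same genes had -3.66, -3.58, -3.21 and -3.14. BOP2 and YDL218W, whose roles are not well defined, had -3.23 and -3.31, and -3.26 and -3.75 without it. GAL7, of galactose use, was lower under potassium restriction by -3.54 on the log2 scale, and its neighbours in the pathway GAL1 and GAL10, chosen after their values were seen, by -2.12 (-1.42 without that library) and -1.71. The hexose transporter family gene HXT14 had -3.84 and the alcohol dehydrogenase gene ADH4 -3.45. GAL7 and HXT14 were nearly silent under potassium restriction, at 2.42, 3.03 and 2.15 CPM and 1.53, 1.19 and 2.03 CPM. The fold of these genes therefore depends on few counts. The ammonium exporter family gene ATO3 had -4.25, and -3.23 without the divergent library. FDH2 and YPL276W were also among the 14, at -6.46 and -6.21, and at -4.54 and -4.02 without that library. Both were low under potassium restriction, at 6.24, 1.98 and 7.30 CPM and 1.78, 1.19 and 3.71 CPM. They are annotated as overlapping pseudogenes on 1 strand of chromosome XVI (18369 to 19079 and 17948 to 18385), so they are not separate observations. Reads from the near-identical formate dehydrogenase gene FDH1 may also be shared with them, so their values are uncertain.

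**Figure D1:**
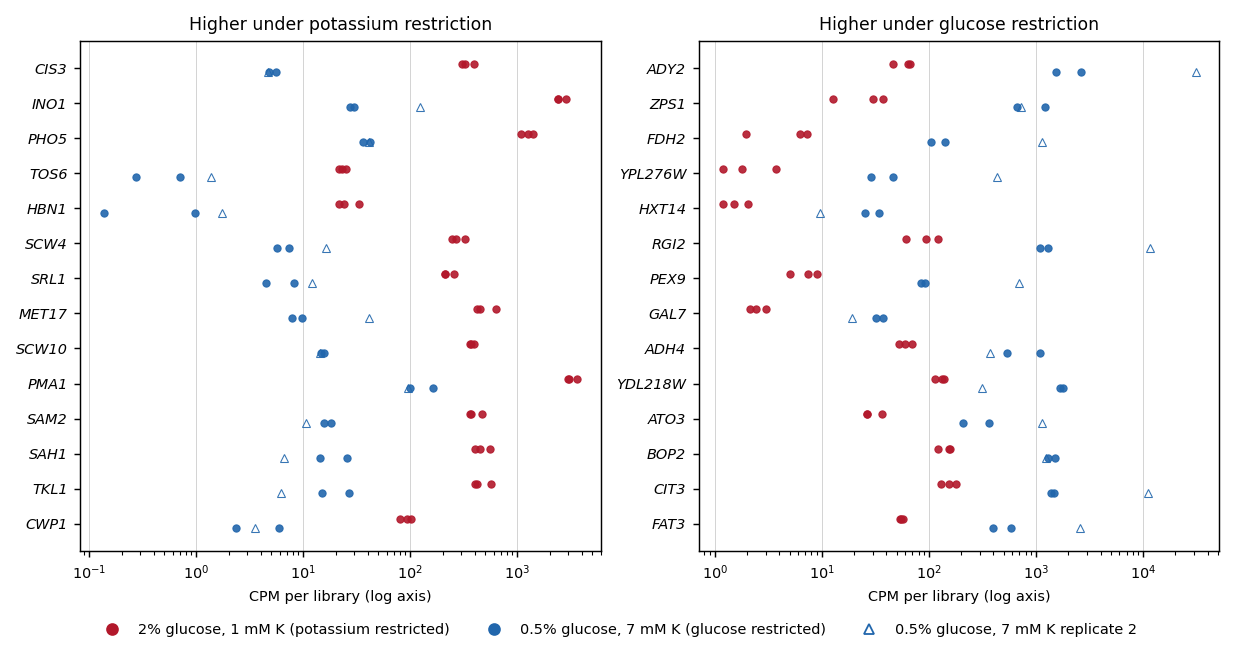
CPM of each of the 6 libraries (log axis) for the 14 genes in each direction ranked by the smaller of their differences with and without the divergent library, with potassium-restricted libraries as red points, glucose-restricted ones as blue points and the divergent library as open triangles. The red and blue points do not overlap for any of the 28 genes, as the rule that chose them required. The triangle lies with its partners for CIS3, PHO5 and ZPS1 and several times above them for ADY2, RGI2 and CIT3.

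Phosphate genes were mostly higher under potassium restriction. Of 19 genes of the phosphate response, 11 were higher, 2 lower and 6 not called, with a median log2 difference of 0.66 against -0.01 for all genes tested, and 12 were higher without the divergent library. PHO5, which encodes the repressible acid phosphatase of the cell surface (chromosome II, 429548 to 430951), stood at 1092, 1262 and 1400.5 CPM under potassium restriction and 42.1, 41.1 and 36.3 CPM under glucose restriction. The glucose-restricted libraries lay close together and far below, and the difference was 4.97 ± 0.26 (SE; edgeR adjusted p = 4.02e-07). PHO84, the high-affinity phosphate transporter gene, varied within both groups, at 1116, 1249.9 and 2609.5 CPM and 295, 24.6 and 159.7 CPM. The groups still did not overlap, and the difference was 3.37 ± 0.68 (SE; edgeR adjusted p = 0.00251). PHO89, which encodes a sodium and phosphate cotransporter, differed by 1.82 ± 0.63 (SE; edgeR adjusted p = 0.0345), with 1385, 1367 and 1099 CPM against 678, 54.6 and 357 CPM.

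GIT1, a transporter gene for glycerophosphoinositol, differed by 3.81 and the polyphosphate polymerase genes VTC1 and VTC4 by 2.18 and 1.22. The members that were lower were PHO86, needed for Pho84 to leave the endoplasmic reticulum (-0.49), and the polyphosphatase gene PPN1 (-0.84). SPL2, a regulator of phosphate transport, was not called with all libraries (0.43, edgeR adjusted p = 0.444) and was higher without the divergent one (1.28, edgeR adjusted p = 0.00211). The count of 11 fell to 7 without potassium-restricted replicate 3, without glucose-restricted replicate 3, with libraries scaled by WBGene rows, or in a fit to the 6 libraries alone. Of the 19 promoters, 14 held the core CACGTG that Pho4 binds, against 356 of all 5669 protein-coding promoters searched (6.28%). The search covered the 500 bases before the annotated gene start on both strands. Here and in the lists below, a list's motif share is set by which genes it holds and not by the comparison. Among genes called in the comparison, CACGTG was in 7.2% of promoters of those higher and 5.6% of those lower. Stretches of the PHO5 and PHO84 promoters are printed because these genes carried large differences and hold that core, which is in capitals. They are read on the gene's strand from the RefSeq R64 genome, at chrII:431172-431231 and chrXIII:26191-26250, both minus strand.
PHO5: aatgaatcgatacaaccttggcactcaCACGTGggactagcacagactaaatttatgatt
PHO84: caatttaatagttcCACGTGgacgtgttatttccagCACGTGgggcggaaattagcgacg

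Inositol and phospholipid genes moved in the same direction with small spread. Of 19 genes, 13 were higher, 1 lower and 5 not called, with a median log2 difference of 1.12, and the counts were the same without the divergent library. Summed over the list, the level was 6072, 6923 and 6275 CPM under potassium restriction and 1673, 1806 and 1650.0 CPM under glucose restriction. INO1, which encodes the first enzyme of inositol synthesis (chromosome X, 134332 to 135933), made up much of this sum, at 2389, 2879 and 2382 CPM against 27.5, 123 and 29.5 CPM. Its difference was 5.41 ± 0.56 (SE; edgeR adjusted p = 2.97e-05) and 6.497 without the divergent library, which was above its partners. The inositol transporter gene ITR1 differed by 3.19 ± 0.23 (SE; edgeR adjusted p = 2.76e-06), the phosphatidylserine synthase gene CHO1 by 1.61 and the phosphatidylethanolamine methyltransferase gene CHO2 by 2.02. PAH1, the phosphatidate phosphatase gene that directs lipid away from the membrane, was the 1 member that was lower (-1.11 ± 0.31, SE; edgeR adjusted p = 0.0128). The letters CATGTG, the core bound by Ino2 and Ino4 and added to the search after the data were seen, were in 12 of 19 promoters of the list and in 12.9% of all promoters. This core was in 15.1% of promoters of all genes called higher and 12.5% of those called lower. The INO1 promoter, shown as the gene with the largest difference of the list, holds it on both strands (capitals; R64, chrX:136094-136183, minus strand).
INO1: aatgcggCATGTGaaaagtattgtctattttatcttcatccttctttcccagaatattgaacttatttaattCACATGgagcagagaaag

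Sulfur and amino acid synthesis genes were higher under potassium restriction. Of 31 genes of sulfate assimilation and methionine metabolism, 19 were higher, 2 lower and 10 not called, with a median of 0.96, and 20 were higher and 1 lower without the divergent library. MET17, the enzyme gene that brings sulfide into homocysteine, stood at 422, 444 and 635 CPM under potassium restriction and 9.70, 41.1 and 7.80 CPM under glucose restriction. The divergent library was the highest of its group and still below the other group, and the difference was 4.70 ± 0.55 (SE; edgeR adjusted p = 7.81e-05) and 5.85 without that library. The S-adenosylmethionine synthetase genes SAM1 and SAM2 differed by 4.04 and 4.75, and the adenylylsulfate kinase gene MET14 by 2.88. The members that were lower were MET4, the activator of the pathway (-0.65), and the sulfate permease gene SUL2 (-0.44), which was not called without the divergent library. In these genes 20 of 31 promoters held CACGTGA, bound by Cbf1, against 4.66% of all promoters. CACGTGA was in 5.5% of promoters of all genes called higher and 4.0% of those called lower. This motif contains the CACGTG counted above. The MET14 promoter, where the motif reads the same on both strands (capitals), is shown for this list at R64 chrXI:439576-439635, minus strand.
MET14: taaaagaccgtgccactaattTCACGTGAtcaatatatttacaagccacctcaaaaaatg

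Of 61 amino acid synthesis genes, 37 were higher, 5 lower and 19 not called, with a median of 1.09, and 41 were higher without the divergent library. GDH1, which encodes the main enzyme that fixes ammonium into glutamate, stood at 723, 833 and 689.9 CPM against 52.4, 25.1 and 63.5 CPM. The groups were far apart, with a difference of 3.99 ± 0.31 (SE; edgeR adjusted p = 3.78e-06). The branched-chain genes LEU1 and BAT1 differed by 3.12 and 3.45 and the histidine gene HIS4 by 2.61. Among the 5 that were lower were TRP1 (-0.80) and the glutamate synthase gene GLT1 (-0.89), and that count was 3 without potassium-restricted replicate 1 or 2. HIS1 depended on 1 library, at 159, 159 and 219.5 CPM under potassium restriction and 80.8, 1496 and 68.2 CPM under glucose restriction. Its difference was -1.61 ± 0.88 (SE; edgeR adjusted p = 0.155) with all libraries and 1.28 (edgeR adjusted p = 4.17e-05) without the divergent one. Of these 61 promoters, 31 held TGACTCA, bound by the amino acid regulator Gcn4, against 4.13% of all promoters. TGACTCA was in 6.9% of promoters of all genes called higher and 3.6% of those called lower. A stretch with it in capitals is shown for BAT1, a member with a difference among the largest of the list (R64, chrVIII:517332-517391, plus strand).
BAT1: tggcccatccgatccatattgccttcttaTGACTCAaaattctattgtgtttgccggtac

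Purine synthesis showed the same direction. Of 20 genes, 14 were higher, 1 lower and 5 not called, with a median of 0.98, and 17 were higher without the divergent library. ADE12, ADE3 and ADE1, of steps in this pathway, differed by 1.79, 1.59 and 1.64. ADE16 was the member that was lower (-0.56 ± 0.18, SE; edgeR adjusted p = 0.0251). Ergosterol genes had 15 of 29 higher and 4 lower (19 and 4 without the divergent library), with a median of 0.75. ERG4, of the last step, was at 3.05. The sterol regulator gene ECM22 and the HMG-CoA reductase gene HMG2 were lower, at -1.65 and -1.09.

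**Figure D2:**
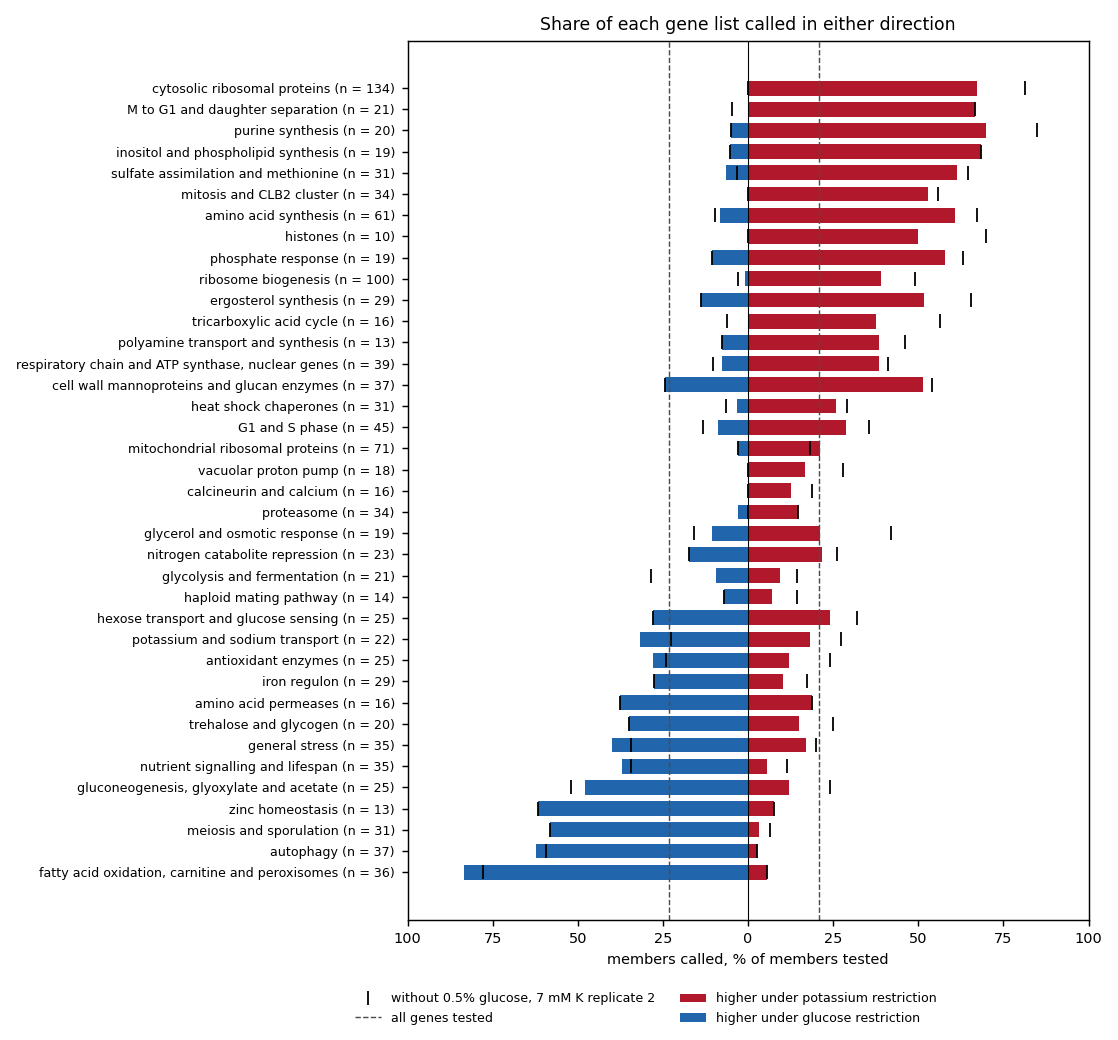
Share of the tested members of each gene list that was called higher (red, to the right) or lower (blue, to the left) under potassium restriction, with ticks for the fit without the divergent library and dashed lines at the shares of all genes tested (20.9% and 23.1%). Ribosomal protein, purine, inositol and sulfur genes reach far past the line on the right; fatty acid oxidation, autophagy, zinc and meiosis genes reach past the line on the left.

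Ribosomal protein genes were higher under potassium restriction, by a margin that depended on the libraries. Of 134 cytosolic ribosomal protein genes, 90 were higher and 0 lower, with a median of 1.14, and 109 were higher with a median of 0.77 without the divergent library. Summed over the list, the level was 55256, 55267 and 58493 CPM under potassium restriction and 35415, 10293 and 33957 CPM under glucose restriction. The divergent library was lowest, and its partners were also below all potassium-restricted libraries. RPL9A was among the clearest members, at 283, 289 and 298 CPM against 51.5, 22.8 and 44.3 CPM (2.87 ± 0.26, SE; edgeR adjusted p = 1.06e-05). Many of these genes have a paralog of near-identical sequence, among which reads may be split, so single members are less certain than the list. The count of 90 was 51 without potassium-restricted replicate 3, 43 with scaling by WBGene rows and 21 in a fit to the 6 libraries alone. Of 100 ribosome biogenesis genes, 39 were higher and 1 lower (median 0.82), and 49 were higher and 3 lower without the divergent library (median 0.46). That count of 39 was 12 without potassium-restricted replicate 3, 23 with library totals, 14 with scaling by WBGene rows and 8 in the 6 libraries alone. NOP1 and NOP58, core proteins of the particles that methylate ribosomal RNA, differed by 2.92 and 2.69. Of 71 mitochondrial ribosomal protein genes, 15 were higher (21.1%, near the 20.9% of all genes) and 2 lower, and the 15 became 9 without potassium-restricted replicate 1 and 5 with scaling by WBGene rows.

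Cell wall and daughter cell separation genes made up a large block. Of 37 genes for mannoproteins and glucan enzymes, 19 were higher, 9 lower and 9 not called, with a median of 0.77 (20 and 9 without the divergent library). The share that was lower, 24.3%, was near the 23.1% of all genes. SCW4 and SCW10, related to glucanases, differed by 4.84 and 4.64, and the mannoprotein gene CWP2 by 4.36 ± 0.25 (SE; edgeR adjusted p = 8.55e-07). CCW12 stood at 2761, 2988 and 2862 CPM under potassium restriction and 151, 97.1 and 150.4 CPM under glucose restriction, and the glucan transferase gene GAS1 at 634, 751 and 858 CPM and 50.03, 48.1 and 31.3 CPM. Neither gene overlapped between the groups. The members that were lower included TIR4 and TIR1, mannoprotein genes known from cold and low oxygen (-2.67 and -2.22). TIP1, of the same family, stood at 113, 6004 and 102 CPM under glucose restriction, with its difference of -5.08 falling in size to -0.79 without the divergent library.

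Of 21 genes expressed from late mitosis to G1, 14 were higher and 0 lower, with a median of 1.64 (14 and 1 without the divergent library). Products of some of these genes, such as the chitinase Cts1, cut the septum between mother and daughter. DSE1, a daughter-specific gene, stood at 171, 239 and 194 CPM against 30.6, 65.7 and 36.9 CPM. The chitinase gene CTS1 stood at 761, 885 and 709.8 CPM against 135, 249 and 134 CPM, and EGT2 at 275, 321 and 292 CPM against 13.9, 64.5 and 20.7 CPM. The potassium-restricted libraries were above all glucose-restricted ones for each. Their differences were 2.19, 2.19 and 3.18, and 2.59, 2.56 and 4.11 without the divergent library. Of 34 mitotic genes, 18 were higher and 0 lower, with a median of 0.59 (19 and 0 without the divergent library). The B-type cyclin gene CLB1 stood at 80.1, 75.9 and 130.5 CPM against 4.65, 6.24 and 5.71 CPM (4.11 ± 0.26, SE; edgeR adjusted p = 1.37e-06), and CLB2 differed by 3.41. Of 45 genes of G1 and S phase, 13 were higher (28.9%, beside 20.9% of all genes) and 4 lower, with a median of 0.30. Without the divergent library, 16 of these were higher and 6 lower. The G1 cyclin genes CLN1, CLN2 and PCL1 differed by 3.12, 2.74 and 4.30, and the ribonucleotide reductase gene RNR1 by 3.88. Its paralog RNR3, known to respond to DNA damage, was lower (-1.90 ± 0.21, SE; edgeR adjusted p = 4.72e-05). Of 10 histone genes, 5 were higher and 0 lower (7 and 0 without the divergent library).

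In the promoters of the cell cycle lists, the forkhead motif GTAAACA was in 18 of 34 mitotic promoters and 10.5% of all, and ACGCGT, bound by MBF, was in 24 of 45 promoters of G1 and S phase and 5.52% of all. GTAAACA was in 13.4% of promoters of all genes called higher and 8.3% of those called lower, and ACGCGT in 6.7% and 4.8%. CGCGAAA, bound by SBF, was in 8.56% of promoters of all genes called higher, 4.54% of those called lower and 6.02% of all. A stretch of the promoter of PCL1, a member with a large difference, is shown with CGCGAAA in capitals on either strand (R64, chrXIV:87577-87626, plus strand).
PCL1: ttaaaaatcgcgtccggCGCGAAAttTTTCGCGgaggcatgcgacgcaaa

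Genes for fatty acid oxidation and peroxisomes were lower under potassium restriction, that is, higher under glucose restriction. Of 36 genes, 30 were lower, 2 higher and 4 not called, with a median of -1.89, and 28 were lower with a median of -0.74 without the divergent library. The summed level was 4621, 4877 and 4744 CPM under potassium restriction and 18248, 61649.5 and 17290.0 CPM under glucose restriction. The divergent library was the highest, and its partners too were above all potassium-restricted libraries. The carnitine genes CAT2, CRC1 and YAT2, which move acetyl groups between compartments, differed by -2.84, -2.87 and -2.84, and by -2.45, -3.23 and -3.07 without the divergent library. CRC1, the carrier of the mitochondrial membrane, stood at 94.8, 108 and 112 CPM against 1102, 320.2 and 887 CPM, with the divergent library the lowest of its group.

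The enzymes of beta-oxidation itself behaved otherwise across the 3 glucose-restricted libraries. POX1, the acyl-CoA oxidase gene, stood at 77.8, 80.6 and 67.0 CPM under potassium restriction and 299, 7376 and 303 CPM under glucose restriction. FOX2 stood at 695, 8544 and 523 CPM and POT1 at 657, 5162 and 631 CPM in the same glucose-restricted libraries, for the later steps. The divergent library was many times above its partners for all 3, and the differences fell in size from -5.14, -3.94 and -4.24 to -1.99, -1.51 and -2.49 without it. The 2 members that were higher under potassium restriction were ANT1, a peroxisomal nucleotide carrier gene (1.05), and PEX21, of peroxisomal import (1.03). In a fit to the 6 libraries alone, 15 members were lower instead of 30.

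Genes of acetate use and gluconeogenesis were divided. Of 25 genes, 12 were lower and 3 higher, with a median of -1.02, and 13 were lower and 6 higher with a median of -0.37 without the divergent library. The count of 12 was 7 in the 6 libraries alone. The acetyl-CoA synthetase gene ACS1 differed by -3.45 (-1.67 without the divergent library) and the monocarboxylate transporter gene JEN1 by -1.88 (-0.86). ADH2, which encodes the alcohol dehydrogenase that consumes ethanol, stood at 401, 555 and 446 CPM against 2184, 30994 and 724 CPM, with a difference of -4.60, or -1.62 without that library. The aldehyde dehydrogenase gene ALD4 and the lactate dehydrogenase gene CYB2 were called lower (-2.73 and -3.37) only with the divergent library, and without it stood at 0.12 and 0.50, on the other side of 0. The methylisocitrate lyase gene ICL2 fell in size from -2.82 to -0.06. The members that were higher under potassium restriction were the cytosolic aldehyde dehydrogenase gene ALD6 (2.72), the malic enzyme gene MAE1 (1.95) and FBP1, of gluconeogenesis (1.34). PCK1, the other key gene of gluconeogenesis, was not called with all libraries (1.16, edgeR adjusted p = 0.0717), and without the divergent one was higher (0.73, edgeR adjusted p = 0.035).

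**Figure D3:**
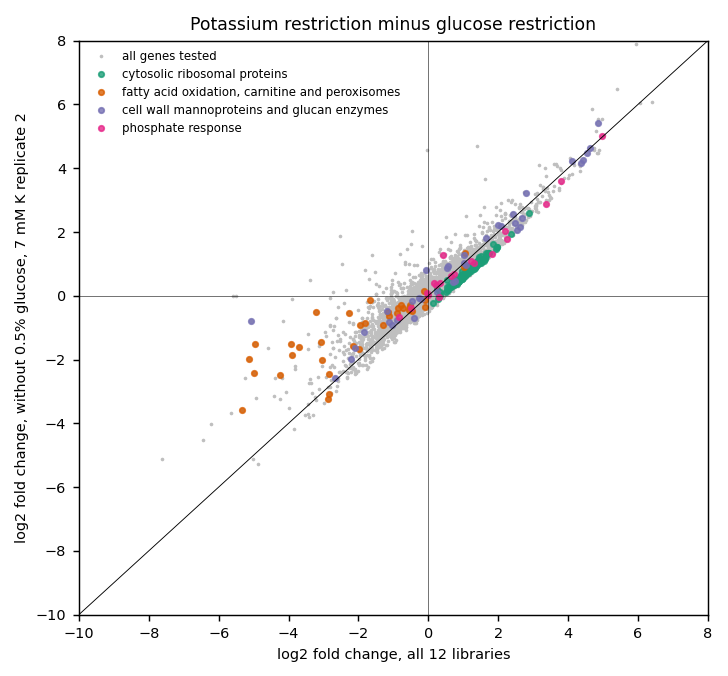
Log2 difference of each gene, potassium-restricted minus glucose-restricted, with all 12 libraries (horizontal axis) and without the divergent library (vertical axis), with 4 gene lists in colour and the line of equality. The median of fatty acid genes (orange, left) moved from -1.89 to -0.74, although CRC1 and YAT2 lie below the line; ribosomal protein genes (green) lie below it on the right, where theirs moved from 1.14 to 0.77; the medians of cell wall genes (0.77 and 0.92) and phosphate genes (0.66 and 0.68) moved less, with TIP1 and SPL2 far from the line.

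Autophagy genes were lower under potassium restriction. Of 37 genes, 23 were lower, 1 higher and 13 not called, with a median of -0.76, and 22 were lower with a median of -0.66 without the divergent library. ATG31, of the scaffold that starts autophagosomes, stood at 38.8, 36.8 and 33.4 CPM against 92.4, 97.3 and 105 CPM. The groups did not overlap, and the difference was -1.43 ± 0.13 (SE; edgeR adjusted p = 1.33e-05). The receptor genes ATG34 and ATG36 differed by -2.18 and -2.20. ATG8, the ubiquitin-like protein of the autophagosome membrane, differed by -0.96, and ATG1, the starting kinase, by -0.76 but was not called without the divergent library (-0.41, edgeR adjusted p = 0.072). The member that was higher was PEP4, the vacuolar protease gene (0.90 ± 0.18, SE; edgeR adjusted p = 0.00253).

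Zinc genes were lower under potassium restriction. Of 13 genes, 8 were lower and 1 higher, with a median of -1.01, and the same numbers held without the divergent library. Beside ZPS1 and ADH4, the lower members included the zinc transporter gene ZRT2 (-1.49), the low-affinity metal transporter gene FET4 (-1.47) and ZAP1, the regulator that senses low zinc (-2.16, and -1.37 without the divergent library). ZRT1, the high-affinity transporter gene, was not called (-0.49 ± 0.34, SE; edgeR adjusted p = 0.26). IZH2 was the member that was higher (0.88). Of 29 iron genes, 8 were lower (27.6%, beside 23.1% of all genes) and 3 higher, among them the siderophore transporter gene SIT1 (-2.34) and the iron-sulfur scaffold gene ISU2 (3.57). The count of 8 was 5 with library totals, 4 with scaling by WBGene rows and 3 in the 6 libraries alone.

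Meiosis and sporulation genes, which act in diploid cells, were also lower. Of 31 genes, 18 were lower and 1 higher, with a median of -0.99 (18 and 2 without the divergent library, median -0.75). SPS100, of the spore wall, stood at 1144, 1040.4 and 663 CPM against 7282, 7056 and 6556 CPM, with a difference of -2.88 ± 0.34 (SE; edgeR adjusted p = 8.14e-05). REC8, of meiotic cohesin, and SPO20, of spore membrane growth, differed by -1.75 and -3.41, and by -1.73 and -2.74 without the divergent library. DMC1, the meiotic recombinase gene, stood at 19.5, 758 and 18.8 CPM under glucose restriction, and its difference of -3.89 was -0.09 without the divergent library.

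Potassium transport genes gave few large differences apart from PMA1. Of 22 genes for potassium and sodium transport, 4 were higher (18.2%, beside 20.9% of all genes) and 7 lower (31.8%, beside 23.1%). Their median was 0.00, and 6 were higher and 5 lower without the divergent library. TRK1, the main potassium importer gene, was not called, at 168, 165 and 135 CPM against 135, 93.9 and 142 CPM and with a difference of 0.33 ± 0.16 (SE; edgeR adjusted p = 0.108). TRK2, its paralog, was lower by -1.59 (-0.94 without the divergent library). The potassium channel gene TOK1 was lower with little spread, at 98.6, 104 and 94.9 CPM against 142, 154 and 156 CPM (-0.60 ± 0.11, SE; edgeR adjusted p = 0.00109). The sodium exporter gene ENA1 was lower by -0.83 and its groups overlapped, at 644, 663 and 454 CPM and 1258, 629.5 and 1253 CPM. Reads of ENA1 may be shared with the near-identical ENA2 and ENA5. The members that were higher beside PMA1 were QDR2, a cation transporter gene (2.68), the kinase gene HAL5, which stabilises Trk transporters (1.299), and the kinase gene SKY1 (0.60). The count of 7 was 3 or 4 without any 1 potassium-restricted replicate, with library totals or with scaling by WBGene rows.

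Genes of glucose sensing and uptake were split. Of 25 genes, 6 were higher and 7 lower, with a median of 0.05 (8 and 7 without the divergent library). Both shares with all libraries were only a little above those of all genes tested (20.9% higher and 23.1% lower). The hexokinase gene HXK2, which also takes part in glucose repression, differed by 2.35 ± 0.41 (SE; edgeR adjusted p = 0.00097), and the repressor genes NRG1 and NRG2 by 1.32 and 2.85. The invertase gene SUC2 was higher (1.16), as was the transporter gene HXT4 (1.93, and 2.54 without the divergent library). HXT6 differed by 3.81 and its near-identical neighbour HXT7 by 0.83 without being called (edgeR adjusted p = 0.0609), and reads may be split between these copies. The low-affinity transporter genes HXT1 and HXT3 were not called, at 0.05 and 0.40 (edgeR adjusted p = 0.888 and 0.0983). The lower members included the repressor gene MIG2 (-1.19) and SNF1, the kinase gene that lifts glucose repression (-0.72), while MIG1 was not called (-0.26, edgeR adjusted p = 0.25). Of 35 nutrient signalling and lifespan genes, 13 were lower and 2 higher, with a median of -0.37 (12 and 4 without the divergent library). The growth-control kinase gene TOR2 was lower (-1.04), and the respiratory activator gene HAP4 was higher (1.60).

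Respiration and stress genes showed smaller differences. Of 39 nuclear genes of the respiratory chain and ATP synthase, 15 were higher and 3 lower (median 0.44). Of 16 tricarboxylic acid cycle genes, 6 were higher and 0 lower (median 0.30). Without the divergent library, 16 respiratory chain genes were higher and 4 lower, and 9 tricarboxylic acid cycle genes were higher and 1 lower. CYC1, the main cytochrome c gene, was higher (1.88 ± 0.31, SE; edgeR adjusted p = 0.000783), and its low-oxygen form CYC7 was lower (-1.34). Those counts of 15 and 6 were 7 and 1 in the 6 libraries alone. Of 31 heat shock chaperone genes, 8 were higher (25.8%, beside 20.9% of all genes), 1 lower and 22 not called. Without the divergent library, 9 of these were higher and 2 lower. SSA2, a constitutive Hsp70 gene, was higher (1.88) and SSA3, its stress-induced relative, was lower (-2.58), at 1218, 1285 and 967 CPM against 6361, 6724 and 7623 CPM. These relatives are similar in sequence, so reads may be shared. Of 35 general stress genes, 14 were lower and 6 higher (12 and 7 without the divergent library), with the reticulon gene RTN2 at -1.998 and, in the other direction, the carbonic anhydrase gene NCE103 at 2.39. AGGGG, the stress response element, was in 26 of 35 promoters of this list, in 34.1% of all promoters, in 40.6% of those of genes called lower and in 30.7% of those of genes called higher.

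The remaining lists had fewer calls or calls in both directions. Glycolysis and fermentation had 2 of 21 higher and 2 lower (3 and 6 without the divergent library), and the proteasome 5 of 34 higher and 1 lower. Calcineurin and calcium genes had 2 of 16 higher and 0 lower, and the vacuolar proton pump 3 of 18 higher and 0 lower. Trehalose and glycogen genes had 3 of 20 higher and 7 lower, antioxidant genes 3 of 25 and 7, amino acid permeases 3 of 16 and 6, and genes under nitrogen catabolite repression 5 of 23 and 4. Polyamine genes had 5 of 13 higher and 1 lower, and glycerol and osmotic genes 4 of 19 and 2 (8 and 3 without the divergent library). Among the lists named so far in this paragraph, only polyamine genes had a higher share well above the 20.9% of all genes. Nitrogen genes and glycerol and osmotic genes were near that share. Lower shares were above the 23.1% of all genes for trehalose and glycogen, antioxidant and permease genes. The other shares of these lists were below those of all genes. The counts of 5 for proteasome, nitrogen and polyamine genes were 3 without potassium-restricted replicate 1 or 2, and the 7 antioxidant genes that were lower became 4 or 2 without potassium-restricted replicate 2 or 3. Without the divergent library, higher and lower counts were 5 and 0 for the proteasome, 3 and 0 for calcineurin and calcium and 5 and 0 for the vacuolar pump. They were 5 and 7 for trehalose and glycogen, 6 and 6 for antioxidant genes and 3 and 6 for permeases. Nitrogen genes had 6 and 4, and polyamine genes 6 and 1. Where a list is given with 0 lower calls by edgeR, an unadjusted p under 0.05 was reached by 1 tricarboxylic acid cycle gene and 1 gene of the late mitosis to G1 list, and DESeq2 and limma voom each called 1 tricarboxylic acid cycle gene lower and 0 in the other lists. Mitochondrially encoded genes summed to between 2.87 and 7.41 CPM in the 6 libraries, too few counts for a comparison. Alpha-specific genes had 3 of 4 higher, led by MF(ALPHA)1 (4.34), a-specific genes 1 of 4 higher and 2 lower, and the haploid mating pathway 1 of 14 in each direction.

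The libraries with both restrictions took no part in the contrast and show where these genes stood when the 2 limits were combined. Their mean log2 CPM lay nearer the potassium-restricted mean for 913 of the 1279 genes called higher (71.4%), for 814 of the 1413 called lower (57.6%) and for 3638 of all 6127 (59.4%). Without the divergent library these shares were 67.7%, 58.8% and 59.0%. Every one of the 90 ribosomal protein genes called lay nearer the potassium-restricted mean, and the 18 mitotic genes called lay mostly nearer the glucose-restricted mean (13 of 18). CLB1 stood at 8.99 ± 1.08 CPM with both restrictions, beside 5.53 ± 0.810 under glucose restriction and 95.5 ± 30.4 under potassium restriction (SD, n = 3). CIS3 stood at 406 ± 38.5 CPM with both restrictions, near its 338 ± 45.8 under potassium restriction, and PHO5 stood between its groups at 209 ± 59.6 CPM (SD, n = 3). Of the 18 respiratory chain genes called, 16 lay nearer the glucose-restricted mean.

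**Figure D4:**
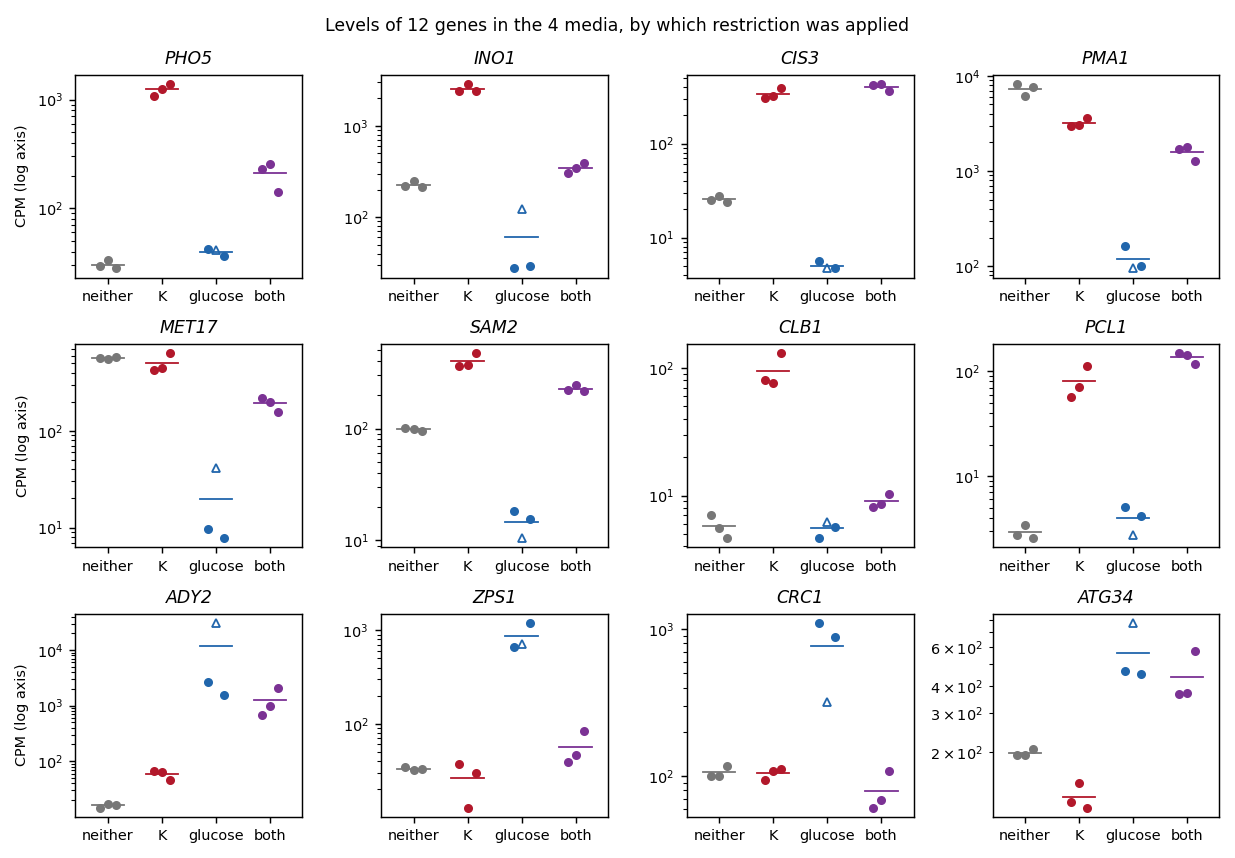
CPM per library (log axes) of 12 genes by which nutrient was restricted (neither, potassium, glucose or both), with a bar at each group's mean and an open triangle for the divergent library. PHO5, INO1 and CLB1 are highest with potassium restriction alone; CIS3 and PCL1 are high in both low-potassium media; ZPS1 and CRC1 are high with glucose restriction alone; ADY2 is high in both low-glucose media.

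The unrestricted mean lay between the means of the restricted groups for 61.6% of genes called higher and 65.8% of genes called lower, against 43.2% of all genes tested. Without the divergent library these shares were 51.4%, 59.0% and 36.3%. A call needs a gap between the restricted means, which leaves more room for a mean between them, so these shares are descriptions. Ribosomal protein genes had a median log2 CPM of 7.82 without restriction, 8.37 under potassium restriction and 6.96 under glucose restriction (7.60 without the divergent library). Amino acid synthesis genes stood at 8.38, 8.08 and 6.72 in the same order, and their summed levels were 37052 ± 2220.1 CPM, 22928 ± 1439 CPM and 14620.3 ± 854 CPM (SD, n = 3). For phosphate genes the order was different, at 6.27, 7.72 and 6.86, with potassium restriction the highest. Fatty acid genes stood at 6.41, 6.35 and 7.80 (7.23 without the divergent library), with glucose restriction the highest. The unrestricted libraries are set beside both groups here as levels, without a test.

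**Figure D5:**
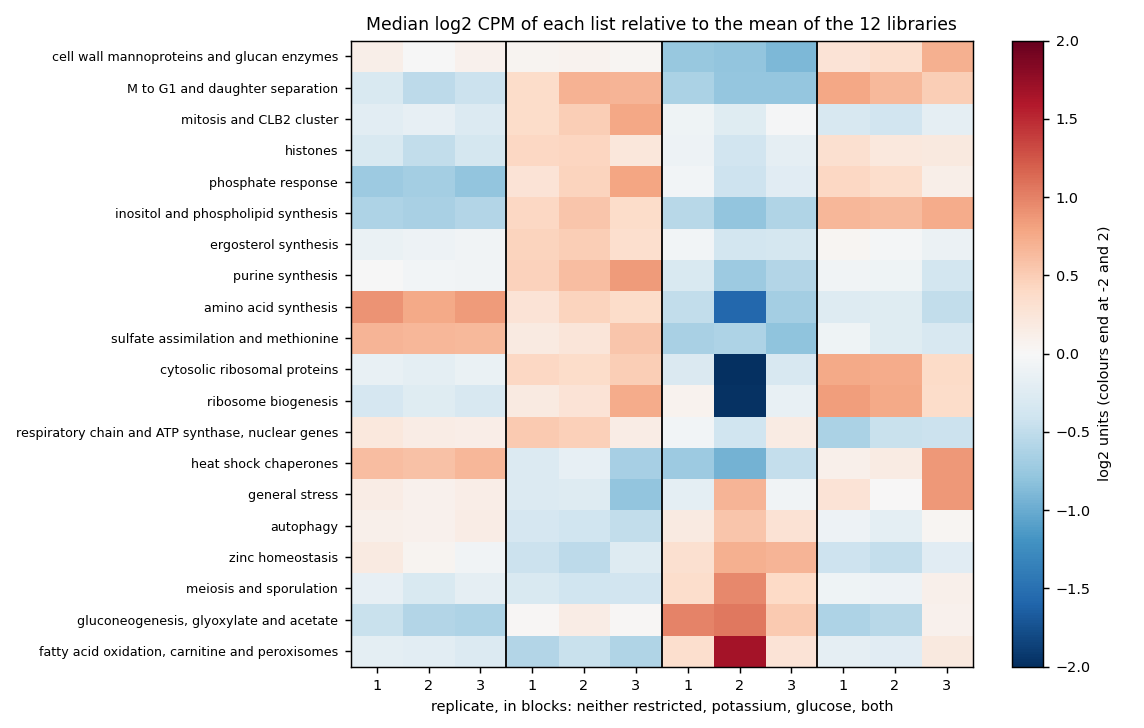
Median log2 CPM of 20 gene lists in each of the 12 libraries, relative to the mean of all libraries (colours end at -2 and 2), in blocks for neither, potassium, glucose and both restrictions. In the glucose block, replicate 2 is darkest blue for ribosomal protein and ribosome biogenesis genes and darkest red for fatty acid genes; cell wall, inositol and zinc genes have the same sign in its 3 libraries.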

How the data were processed

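RNA sequencing libraries of 12 yeast cultures were analysed, 3 in each of 4 media. Per the submitters' processing notes and the labels' protocols, STAR 2.7.1a, RSEM 1.3.3 and the S. cerevisiae build R64 were used. What was deposited are expected counts, 1 value for each gene and library, stored as whole numbers in a single table of 46904 rows, so no rounding was needed. Of the 7127 rows with SGD identifiers, 6444 (90.4%) matched the RefSeq R64 annotation, from which names, coordinates and promoters were taken, and 683 stayed in the fit under their identifier. The 39777 rows with WBGene identifiers entered only as an alternative scaling. Strandedness of the counting is not given in the sources used here, so overlapping genes cannot be told apart with certainty.

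Depth was 5634205 to 7036345 SGD counts per library, and 3 counts corresponded to at most 0.5325 CPM. In edgeR 4.0.16 (R 4.3.3), the default filter chose the genes, TMM factors came from the SGD rows, and all 12 libraries entered a robust quasi-likelihood fit in which each group had its own mean (common biological coefficient of variation 0.2405, 8 residual degrees of freedom). Adjusted p-values are Benjamini-Hochberg values over all genes tested, two-sided. The fit was tested on simulated data with known changes. Alternatives were DESeq2 1.42.0, limma voom (3.58.1), other scalings, filters and thresholds, a replicate block, the 6 libraries alone and leaving out each library.

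The comparison, the 42 gene lists and the alternatives were chosen with earlier results of these data known. Counts and medians of a list are descriptions beside those of all genes. The genes named were 14 in each direction among genes called in the same direction with and without glucose-restricted replicate 2, averaging 10 CPM or more and with no overlap between groups, ranked by the smaller size of the difference in these fits. To these were added the 3 members of each list with the smallest p, up to 2 called members against a list's majority, and a fixed set of transport, glucose and strain genes. A further 35 genes were named after their values were seen (GAL1, GAL10, HIS1, ALD4, CYB2, ICL2, TIP1, DMC1, POX1, FOX2, FBP1, PCK1, HAL5, VTC4, SPL2, CCW12, GAS1, EGT2, CTS1, CLB2, CLN2, HXK2, NRG2, HIS4, ZAP1, ZRT1, ZRT2, ATG8, ATG1, SNF1, MIG2, ACS1, JEN1, POT1 and SKY1). Of the 12 motifs searched in promoters, CATGTG and CCTTNAAGG were added after the data were seen, and the printed stretches were chosen for their matches. Some results are not reported here. Python 3.11.15 with pandas 2.3.3 and numpy 2.4.6 made the tables, and matplotlib 3.10.9 the figures.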

Additional observations from a re-analysis of the deposited data

Results flagged for a closer look

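Rows with WBGene identifiers lay outside the comparison and held up to 41.6% of all counts in a library, a signal in data that the comparison does not use. In the 6 libraries compared they held 33.97% to 37.1%. What these rows measure was not tested.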

How the results depend on the processing

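Depth limits the genes with few counts, and 3 replicates per group limit small differences. Many calls depended on which libraries set the spread. Against 1279 higher and 1413 lower genes, a test against a fold of 1.5 (edgeR glmTreat) called 616 and 477, and a fit to the 6 libraries alone called 739 and 723. Lower calls were 888 with library totals and 770 with scaling by WBGene rows. DESeq2 called 1407 and 1593, and limma voom 1371 and 1368. Leaving out each of the 12 libraries in turn gave 1001 to 1535 higher and 1069 to 1507 lower genes. Of the higher genes, 67.7% lay nearer the potassium-restricted mean with both restrictions when glucose-restricted replicate 2 was left out, against 71.4% with it.

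Some genes that were not called with all libraries had differences that changed sign between settings. PMA2 was 0.0247 with library totals. BAR1, a protease gene of mating, was -0.0297 in the fit to the 5 libraries left without the divergent one and from -0.0892 to 0.1773 when libraries were left out. HXT1 ranged from -0.18 to 0.40, FUS3 from -0.0347 to 0.1578 and STE4 from -0.5049 to 0.0153 over the libraries left out. STE4 had an adjusted p under 0.05 in at least 1 setting. Genes that turned without the divergent library were HIS1, at 1.28 (1.27 in the 5 libraries), ALD4, at 0.12 (0.11), and CYB2, at 0.50 (0.49). Over the libraries left out, HIS1 ranged from -2.17 to 1.28, ALD4 from -3.30 to 0.12 and CYB2 from -3.98 to 0.50. The cause was not tested.

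Libraries were not treated as paired by replicate number. Deviations from group means of same-numbered libraries correlated at -0.37 to 0.33 over 18 pairs. Libraries with different numbers correlated at -0.40 to 0.43, so these ranges do not settle whether the numbers mark pairs. With a replicate block, 1175 genes were higher and 1202 lower.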

Other observations

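A few pairs of related genes differed in opposite directions between the restrictions. The external mitochondrial NADH dehydrogenase gene NDE2 stood at 315, 309 and 295 CPM under potassium restriction and 1556, 3049.9 and 1357 CPM under glucose restriction, with a log2 difference of -2.70 ± 0.32 (SE; edgeR adjusted p = 8.73e-05). Its paralog NDE1 was higher under potassium restriction (1.38 ± 0.24, SE; edgeR adjusted p = 0.00111), at 650.3, 713 and 758 CPM against 244, 378 and 195 CPM. The pyruvate decarboxylase gene PDC1 was lower (-1.01) and its paralog PDC5 higher (1.20). The groups did not overlap for NDE1, NDE2, PDC1 or PDC5. Whether the members of a pair differ from each other in their response was not tested.

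Other genes with large differences included TPO2, a polyamine exporter gene, at 3.41, with 262, 219.7 and 141 CPM against 23.5, 14.8 and 19.9 CPM and 2809 ± 242 CPM where neither nutrient was restricted (SD, n = 3). The glycerol transporter gene STL1 had 2.59, the osmotic stress kinase gene HOG1 1.80, the secreted glycoprotein gene YGP1 2.47 and the thioredoxin reductase gene TRR1 2.38. The dicarboxylic amino acid permease gene DIP5 was lower (-2.20 ± 0.22, SE; edgeR adjusted p = 1.83e-05). HO, which encodes the mating-type endonuclease, stood at 59.1, 72.7 and 138 CPM against 8.88, 8.19 and 9.61 CPM and at 346 ± 64.6 CPM with both restrictions (SD, n = 3).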
